A study of Homo sapiens with 8 samples.

Results

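The comparison of MDA-MB-453 cells after 16 h of 5α-dihydrotestosterone (DHT) with cells given vehicle rested on 4 arrays, the 2 titled DHT for 16h and the 2 titled vehicle, of 8 in the series. MDA-MB-453 is an established human breast cancer line, and DHT is the most potent natural androgen. The cells had spent 3 days in medium free of phenol red, with 5% charcoal/dextran-treated serum, which is low in steroids, before vehicle or 10 nM DHT was added. Total RNA was hybridised to expression arrays, with n = 2 biological replicates in each group. The labels give no harvest time for the vehicle arrays, so time in culture and DHT cannot be told apart. Each of 19775 genes with its own probe set was compared, which is every gene measured in the series, and the values are log2 signals. The 2 groups of the comparison shared a spread with the 4 h and 48 h groups, and a gene was called at a limma adjusted p below 0.05.

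Androgen enters the cell, binds the androgen receptor, and the receptor moves to the nucleus, where it occupies DNA with partner factors and raises or lowers the transcription of nearby genes. Early targets include other regulators, so that after many hours the RNA profile also holds later steps, such as changes in growth and metabolism. In apocrine breast cancer cells, of which MDA-MB-453 is a model, androgen acts without an estrogen receptor. Bulk arrays cannot tell fewer cells in a state, such as division, from less RNA per cell.

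At 16 h, 504 genes were called higher and 850 lower, which is 2.55% and 4.30% of the genes tested and 6.85% in either direction. Most changes were small. Of the higher genes 227 had a log2 change under 0.5, 234 between 0.5 and 1, 32 between 1 and 2 and 11 of 2 or more. Of the lower genes 271 had a size under 0.5, 480 between 0.5 and 1, 91 between 1 and 2 and 8 of 2 or more. With each array shifted to an equal median of 10 housekeeping genes the split was 807 higher and 548 lower, against 504 and 850, and the median change of all genes was 0.115 rather than 0.024. Replicates correlated across genes at r = 0.995 at 16 h and 0.995 to 0.997 in all groups, and genes are not independent replicates. Luminal epithelial markers were bright (12 measured of 13, with means over the arrays from 9.49 to 14.18, 3 called higher and 2 lower), as the labelled cell type has them. Of 6 immune, 6 endothelial and 10 fibroblast markers 0 were called (limma), and 1 of the 22 had an unadjusted p below 0.05. Of 5 basal markers 1 was lower, ACTA2, and the summed level of the 5 was 10.28 to 10.40 in vehicle and 10.16 to 10.17 at 16 h. Its part in the results was not tested.

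The second 16 h array stood apart in its control probe sets, and its values are shown beside the results throughout. Those controls read the 3′ and the 5′ part of an RNA, and a wide gap means that less 5′ sequence was labelled. For ACTB the gap was 1.52 log2 units in replicate 2 at 16 h, against 0.53 in replicate 1 and 0.20 to 0.94 over the other 7 arrays. For GAPDH it was 0.82, against 0.19 to 0.35. With replicate 1 alone at 16 h, the calls were 248 higher and 732 lower, of which 227 and 597 were among the 504 and 850. Without replicate 1 they were 762 higher and 892 lower, of which 416 and 593 were among them. The higher calls thus moved more with the choice of array than the lower ones, and the part of RNA quality in this was not tested. Without vehicle replicate 1 the calls were 189 higher and 328 lower, and without vehicle replicate 2 they were 356 and 597.

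**Figure D1:**
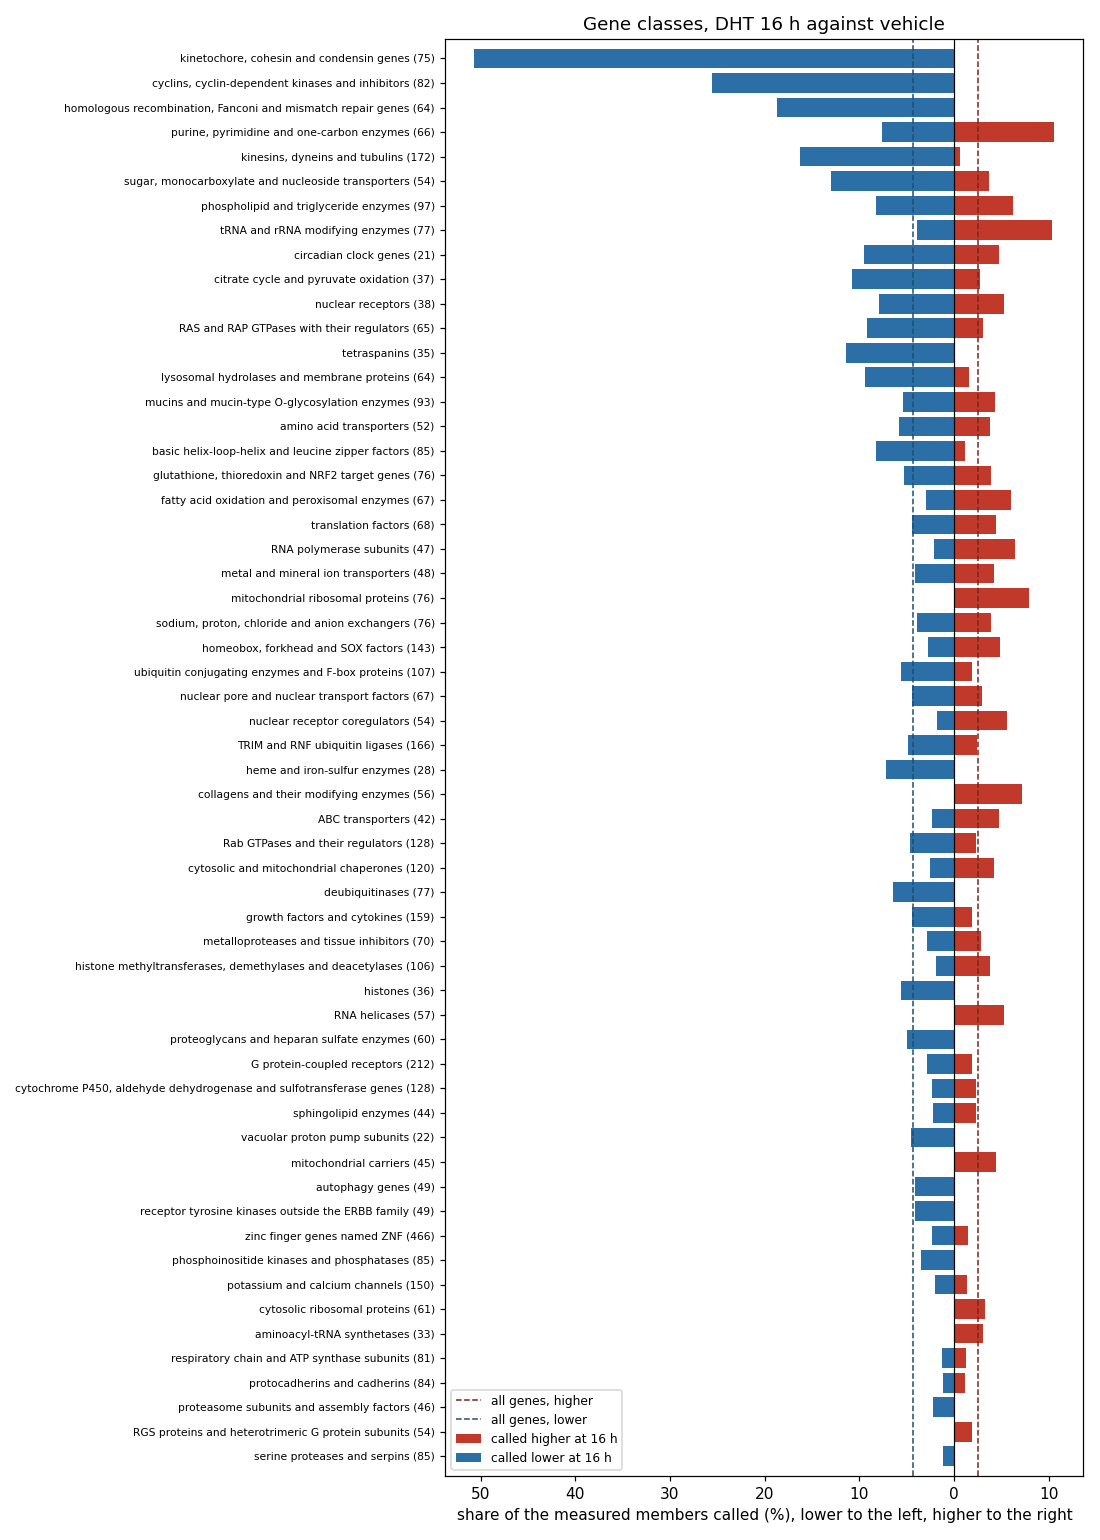
Share of measured members called higher (red, to the right) and lower (blue, to the left) at 16 h in each gene class shown, with the number of members in brackets and dashed lines at the share over all genes (2.55% higher, 4.30% lower). Kinetochore, cohesin and condensin genes stand at 50.7%, all lower, followed by cyclins and their kinases at 25.6%.

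Gene classes built from gene families, 59 in all with 4863 distinct genes, were read against those shares. Genes for chromosome segregation were the class with the largest share called. Of 75 measured kinetochore, cohesin and condensin genes, 38 were lower and 0 higher, or 50.7%, with a class median of -0.43 against 0.02 over all genes. These proteins build the platform that joins each chromosome to the spindle, hold sister chromatids together and compact the chromosomes before division. Without replicate 2 the counts were 39 lower and 0 higher, and without replicate 1 they were 31 and 1. Under the housekeeping scaling 28 were lower, and the count was 17 without vehicle replicate 1 and 27 without vehicle replicate 2.

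The largest fall of the class was that of SPC25. This subunit of the NDC80 complex, which grips microtubules, read 9.72 and 9.42 in the vehicle arrays and 8.21 and 8.35 in the 16 h arrays, which is -1.29 ± 0.11 on the log2 scale (± SE, n = 2 in each group, limma adjusted p = 4.77e-05). NDC80, the name-giving subunit, read 8.91 and 8.87 in the vehicle arrays and 7.43 and 8.04 in the 16 h arrays and changed by -1.16 ± 0.17 (adjusted p = 0.00179). In both genes each 16 h array lay below each vehicle array, and for NDC80 replicate 2 had the smaller fall. KNL1, the scaffold that binds the spindle checkpoint proteins, read 10.58 and 10.21 against 8.99 and 9.48, a change of -1.16 ± 0.19. CENPL, a centromere protein, read 9.91 and 9.66 against 8.91 and 8.32 and changed by -1.17 ± 0.18, here with the deeper fall in replicate 2. The 4 genes kept their call in each fit that left out 1 array.

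The class was then split into subgroups after the values had been seen, so their counts are a description. Of 21 centromere and CENP proteins, 13 were lower, with changes from -1.17 to 0.32. Of 16 outer kinetochore genes, 9 were lower, and of 8 condensins, 6 were lower (median -0.59). Of 15 spindle checkpoint and passenger complex genes, 5 were lower, and of 15 cohesin and SMC5/6 genes, 5. Among members named after their values were seen, the checkpoint kinases TTK and BUB1 changed by -0.86 and -0.84, the condensin NCAPG by -0.97, and the passenger kinase AURKB by -0.69. The cohesin subunit RAD21 changed by -0.99 with most of the fall in replicate 2 (-1.52, against -0.45 in replicate 1), and it was not called without that array. In the order given, replicate 2 lay above replicate 1 by a median of 0.20, 0.17, 0.18, 0.30 and 0.07 in these subgroups.

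Promoters of these genes are shown because genes of the late cell cycle often carry a cell cycle homology region near their start, with the letters TTTGAA or TTCGAA. The windows are from RefSeq (GRCh38.p14), run from 250 bases before to 50 bases after the start site, and read 5′ to 3′ on the gene's strand. The 3 are those of the called members with the largest falls whose window was in the table and held the letters on either strand, and the capitals mark the matches.
SPC25, chr2:168890381-168890680, minus strand: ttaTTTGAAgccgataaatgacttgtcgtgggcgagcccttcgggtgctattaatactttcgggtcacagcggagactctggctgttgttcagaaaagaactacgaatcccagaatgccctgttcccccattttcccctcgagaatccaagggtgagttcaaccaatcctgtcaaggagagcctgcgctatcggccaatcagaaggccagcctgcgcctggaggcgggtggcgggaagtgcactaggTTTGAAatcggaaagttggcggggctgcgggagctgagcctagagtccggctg
NDC80, chr18:2571307-2571606, plus strand: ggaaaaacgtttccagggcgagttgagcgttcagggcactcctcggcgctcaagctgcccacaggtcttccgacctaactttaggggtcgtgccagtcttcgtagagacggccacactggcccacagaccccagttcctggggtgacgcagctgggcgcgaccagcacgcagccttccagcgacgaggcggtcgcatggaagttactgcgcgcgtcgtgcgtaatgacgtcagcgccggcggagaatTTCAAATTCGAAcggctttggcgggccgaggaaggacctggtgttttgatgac
SKA1, chr18:50374796-50375095, plus strand: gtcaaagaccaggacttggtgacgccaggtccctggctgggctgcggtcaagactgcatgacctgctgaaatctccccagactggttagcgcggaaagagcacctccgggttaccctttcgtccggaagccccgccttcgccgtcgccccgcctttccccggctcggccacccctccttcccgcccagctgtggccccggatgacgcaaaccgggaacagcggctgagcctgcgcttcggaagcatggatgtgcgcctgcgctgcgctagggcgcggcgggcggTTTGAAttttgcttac
In SPC25 matches begin at base 4 and base 248 of the window, in NDC80 at 248 and 254, and in SKA1 at 285, where base 251 is the start site. SKA1, which helps kinetochores hold on to shrinking microtubules, changed by -1.02 and was not called without replicate 2. Of the 30 called members with a window, 18 (60%) held TTTGAA or TTCGAA, and of the 32 members not called, 12 (37.5%). Over the 15384 measured genes with a window the share was 13.3%. Among lower genes of 2 other classes, it was 5 of 17 cyclins, their kinases and inhibitors (29.4%). For recombination, Fanconi and mismatch repair genes it was 1 of 9 (11.1%). A match is no evidence that a factor bound there.

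Cyclins, their kinases and inhibitors came next. Of 82 measured members 21 were lower and 0 higher (25.6%), with a median of -0.13. With replicate 1 alone at 16 h, the counts were 17 lower and 0 higher, without replicate 1 they were 16 and 3, and without vehicle replicate 1 or 2 they were 9 or 10 lower and 0 higher. E2F8, a repressor of the E2F family, read 9.12 and 8.62 in the vehicle arrays and 7.50 and 7.67 in the 16 h arrays and changed by -1.29 ± 0.15 (adjusted p = 4.69e-04). CCNA2, the cyclin of S phase and early mitosis, read 11.85 and 11.68 against 10.94 and 10.61, a change of -0.99 ± 0.12, and its kinase partner CDK1 read 12.18 and 12.24 against 11.55 and 11.13, a change of -0.87 ± 0.13. In CCNA2 and CDK1 replicate 2 was the lower of the 16 h arrays. CCNG2, a cyclin linked to growth arrest, read 12.23 and 12.29 against 11.07 and 11.45 and fell as well (limma adjusted p = 8.27e-04). Of 7 inhibitors of cyclin-dependent kinases 3 were lower and 0 higher, namely CDKN1A (-0.64), CDKN1B (-0.53) and CDKN3 (-0.41), named after their values were seen. CDKN1B was not called without replicate 1, and CDKN3 without either 16 h array. Of 10 A, B, D and E cyclins, 4 were lower and the rest ran up to 0.35, and of 13 E2F factors and partners, 3 were lower.

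Kinesins, dyneins, tubulins and their spindle and centrosome partners had 28 lower and 1 higher of 172 (16.9%). The class median was -0.07, and it turned to 0.02 under the housekeeping scaling, where 18 were lower and 3 higher. KIF18A, a motor that dampens chromosome movement on the spindle, read 9.74 and 9.66 in the vehicle arrays and 8.56 and 8.70 in the 16 h arrays and changed by -1.07 ± 0.11 (adjusted p = 1.70e-04). KIF20A, needed for cell cleavage, read 11.04 and 11.06 against 10.04 and 10.28, a change of -0.89 ± 0.10, and KIF23, a motor of the central spindle, read 10.09 and 9.84 against 8.87 and 9.13, a change of -0.96 ± 0.14. TUBB2A, a beta tubulin, read 8.37 and 8.31 against 7.19 and 7.81, a change of -0.84 ± 0.17, with the larger fall in replicate 1. KIF16B, a motor of early endosomes, was the 1 member higher, at 0.54 ± 0.14. Without replicate 2 the counts were 32 lower and 0 higher, without replicate 1 they were 20 and 5, and without vehicle replicate 1 they were 12 and 0. The call was lost without vehicle replicate 1 for TUBB2A (0.0920), with the largest adjusted p in brackets. KIF16B (0.176) was not called without either vehicle array or either 4 h array or 16 h replicate 2 or either 48 h array.

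Genes that repair DNA by homologous recombination, with the Fanconi and mismatch repair genes, had 12 lower and 0 higher of 64 (18.8%, median -0.15). EXO1, a nuclease of end resection and mismatch repair, read 10.45 and 10.50 in the vehicle arrays and 9.80 and 9.80 in the 16 h arrays and changed by -0.67 ± 0.10 (adjusted p = 0.00229), with both 16 h arrays at one level. BRIP1, a helicase that works with BRCA1, changed by -0.70 ± 0.12, and FANCI, a part of the complex that marks DNA crosslinks, by -0.70 ± 0.15. The counts were 13 lower without replicate 2, 10 without replicate 1, 4 without vehicle replicate 1 and 7 without vehicle replicate 2, with 0 higher in each. A call ended without vehicle replicate 1 for BRIP1 (0.0540), with the largest adjusted p in brackets. FANCI (0.0928) was not called without either vehicle array or 16 h replicate 1.

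**Figure D2:**
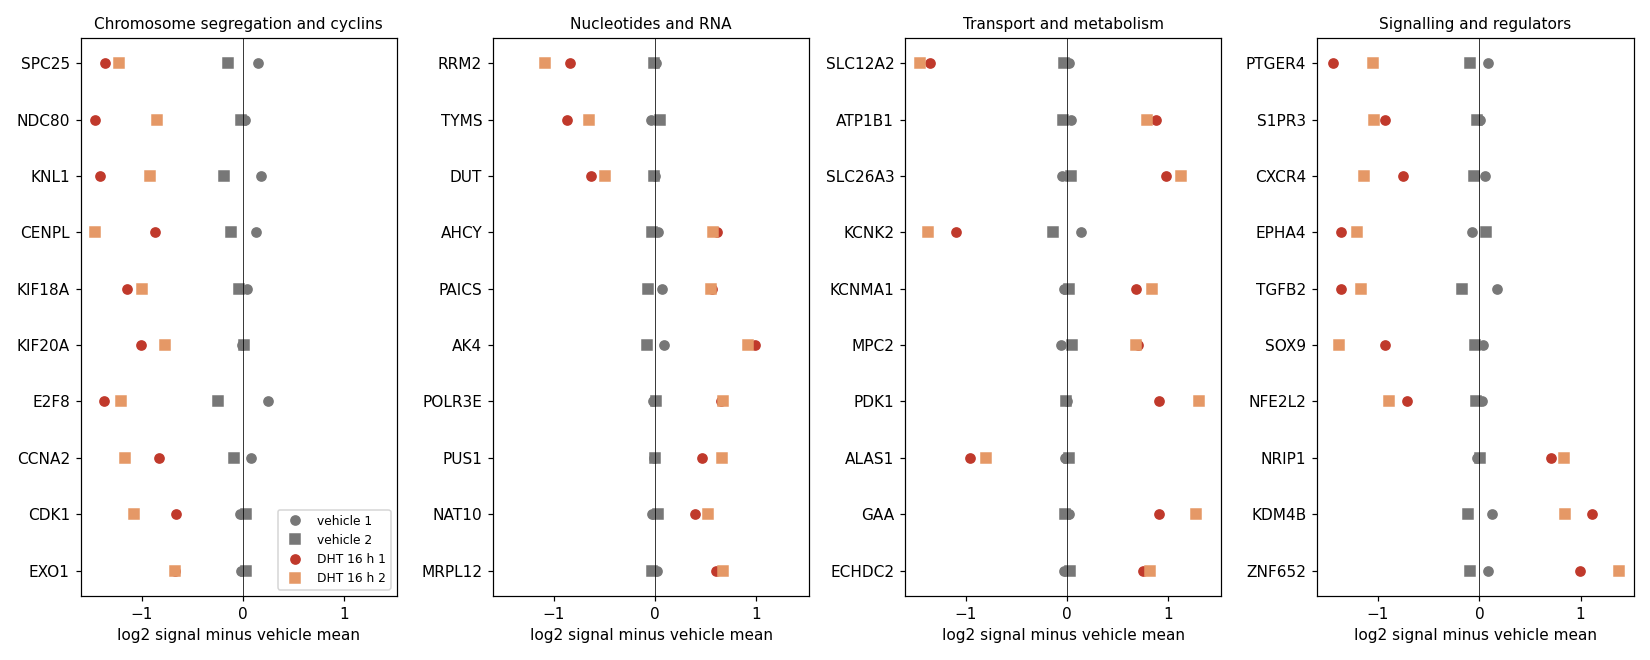
Log2 signal minus the vehicle mean of the gene in each vehicle array (grey) and each DHT 16 h array (red and orange; circles replicate 1, squares replicate 2) for 40 genes in 4 panels. In each gene both 16 h arrays lie on the same side of both vehicle arrays, and replicate 2 lies further out for CENPL, CDK1 and ZNF652 and less far for NDC80, KNL1 and TYMS.

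Enzymes of nucleotide and one-carbon metabolism were split by direction. Of 66 measured, 7 were higher and 5 lower (18.2%). Of the lower members 4 supply DNA precursors. RRM2, the regulated subunit of ribonucleotide reductase, read 13.38 and 13.36 in the vehicle arrays and 12.53 and 12.28 in the 16 h arrays and changed by -0.96 ± 0.10 (adjusted p = 1.96e-04). TYMS, which makes thymidylate, read 12.26 and 12.35 against 11.43 and 11.65, a change of -0.76 ± 0.10, and DUT, which clears deoxyuridine triphosphate, read 14.04 and 14.03 against 13.41 and 13.55, a change of -0.56 ± 0.10. RRM1, the other reductase subunit, changed by -0.57 ± 0.12. In a subgroup set after the values were seen, 4 of 7 genes for deoxynucleotide supply were lower, and 4 without replicate 2. The threshold was missed without vehicle replicate 1 for DUT (0.0570), with the largest adjusted p in brackets. RRM1 (0.0847) was not called without either vehicle array or 16 h replicate 1.

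The higher members act in purine synthesis, the methionine cycle and energy exchange. AHCY, which clears the product of methylation reactions, read 12.78 and 12.72 in the vehicle arrays and 13.36 and 13.32 in the 16 h arrays and changed by 0.60 ± 0.09 (adjusted p = 0.00199). PAICS, an enzyme of purine ring synthesis, read 11.75 and 11.61 against 12.24 and 12.23, a change of 0.56 ± 0.09. AK4, an adenylate kinase of mitochondria, read 11.16 and 10.99 against 12.06 and 11.99, a change of 0.95 ± 0.10, and its 3 other probe sets were also called higher. MAT2A, which makes the methyl donor S-adenosylmethionine, read 11.96 and 12.28 against 12.51 and 12.84, a change of 0.55 ± 0.14. In each of the 4 genes both 16 h arrays lay above both vehicle arrays, and MAT2A also differed between the 2 arrays of each group. Of 16 genes for purine and pyrimidine ring synthesis, 3 were higher and 0 lower, a count that was 1 without replicate 2 and 2 without replicate 1. Over the class, 3 were higher without replicate 2 and 7 without replicate 1. Leaving out vehicle replicate 1 gave 3 higher and 2 lower members, and leaving out vehicle replicate 2 gave 5 and 3. The call was lost without vehicle replicate 1 or either 4 h array or 16 h replicate 2 or either 48 h array for MAT2A (0.289), with the largest adjusted p in brackets.

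The 8 classes for RNA and protein synthesis held 484 genes, with 28 higher (5.79%) and 10 lower (2.07%), while the 4 cell division classes held 393 genes with 1 higher (0.254%) and 99 lower (25.2%). The classes cover ribosomal proteins, translation factors, tRNA synthetases, RNA polymerase subunits, RNA modifying enzymes, nuclear transport factors and RNA helicases. The higher count fell without 16 h replicate 2 and without either vehicle array. Without 16 h replicate 2, 9 were higher and 9 lower, or 1.86% each, against 1.25% and 3.70% of all genes in that fit. Without replicate 1 there were 34 higher and 14 lower, or 7.02% and 2.89%, against 3.85% and 4.51% of all genes. Leaving out vehicle replicate 1 left 7 higher and 1 lower (1.45% and 0.207%, against 0.956% and 1.66% of all genes), and leaving out vehicle replicate 2 left 16 and 7. With the ACTB 3′ minus 5′ gap as a covariate 10 were higher and 12 lower. These were 2.07% and 2.48%, against 1.45% and 4.53% of all genes. Under the housekeeping scaling 44 were higher and 4 lower (9.09% and 0.826%), against 4.08% and 2.77% of all genes. In the 4 cell division classes the shares called lower in these 2 fits were 28.0% and 17.3%, against 4.53% and 2.77% of all genes. For the 393 cell division genes the lower count was 101 without replicate 2 and 77 without replicate 1. It was 42 without vehicle replicate 1 (10.7%, against 1.66% of all genes), 63 without vehicle replicate 2, 110 with the covariate and 68 under the housekeeping scaling.

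The enzymes that modify tRNA and rRNA had 8 higher and 3 lower of 77 (14.3%, median 0.08). PUS1, which turns uridine into pseudouridine in tRNA, read 8.44 and 8.45 in the vehicle arrays and 8.91 and 9.11 in the 16 h arrays and changed by 0.56 ± 0.10 (adjusted p = 0.00485). TRMT1, a tRNA methyltransferase, changed by 0.55 ± 0.11, and NAT10, an RNA acetyltransferase, read 10.03 and 10.09 against 10.45 and 10.58, a change of 0.46 ± 0.09. PUS7, another pseudouridine synthase, changed by 0.46 ± 0.12. In these 4 genes both 16 h arrays lay above both vehicle arrays, and replicate 2 was the higher. TRMT11, a tRNA methyltransferase as well, went the other way at -0.57 ± 0.10. Leaving out replicate 2, the class had 1 higher and 2 lower, without replicate 1 it had 9 and 2, with the ACTB 3′ minus 5′ gap as a covariate 1 and 3. The class had 1 higher and 1 lower members without vehicle replicate 1, and 3 and 4 without vehicle replicate 2. A call ended without vehicle replicate 1 or 16 h replicate 2 for TRMT1 (0.118) and NAT10 (0.109), with the largest adjusted p in brackets. PUS7 (0.199) was not called without either vehicle array or either 4 h array or 16 h replicate 2.

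Among mitochondrial ribosomal proteins, which make the translation machine of that organelle, 6 of 76 were higher and 0 lower (7.89%). MRPL12 read 10.78 and 10.73 in the vehicle arrays and 11.36 and 11.43 in the 16 h arrays and changed by 0.64 ± 0.09 (adjusted p = 0.00123). MRPL34 and MRPL24 changed by 0.54 ± 0.09 and 0.50 ± 0.09. The class had 3 higher without replicate 2, 9 without replicate 1, 3 without vehicle replicate 1, 12 under the housekeeping scaling, and 1 on probe sets outside the kinds that can match several transcripts. Of 61 cytosolic ribosomal proteins 2 were higher (3.28%), RPL22L1 (0.70 ± 0.11) and RPL19 (0.34 ± 0.09). Among RNA polymerase subunits and their basal factors, 3 were higher and 1 lower of 47 (8.51%, against 6.85% of all genes). POLR3E, a subunit of the polymerase that makes tRNA, read 10.76 and 10.79 against 11.43 and 11.45, a change of 0.66 ± 0.09, and its difference from vehicle at 4 h was 0.73. POLR1D, shared by the polymerases for rRNA and tRNA, changed by 0.55 ± 0.10, while TAF1A, a selectivity factor for rRNA genes, changed by -0.83 ± 0.14. The RNA helicases DDX28, DDX21 and DHX33 changed by 0.56 ± 0.11, 0.45 ± 0.10 and 0.36 ± 0.09. They were the only calls among 57 helicases (5.26%), with 0 lower. Without replicate 2 or with the covariate 0 helicases were called higher, and 1 without either vehicle array, while the polymerase class had 1 higher and 0 lower without vehicle replicate 1 and 5 and 1 under the housekeeping scaling. The threshold was missed without vehicle replicate 1 for MRPL24 (0.0675), POLR1D (0.0978) and TAF1A (0.0676), with the largest adjusted p in brackets. RPL19 (0.281) was not called without either vehicle array or either 4 h array or either 16 h array or either 48 h array. DDX28 (0.0977) was not called without vehicle replicate 1 or 16 h replicate 2. DDX21 (0.107) was not called without vehicle replicate 2 or 16 h replicate 2. DHX33 (0.198) was not called without either vehicle array or either 4 h array or 16 h replicate 2 or either 48 h array.

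Promoter windows of the higher synthesis genes are shown for the E-box CACGTG, the letters that MYC and related factors bind, with matches counted on either strand and in capitals. The 2 windows are those of the called members with the largest rises that hold the letters.
POLR3E, chr16:22297159-22297458, plus strand: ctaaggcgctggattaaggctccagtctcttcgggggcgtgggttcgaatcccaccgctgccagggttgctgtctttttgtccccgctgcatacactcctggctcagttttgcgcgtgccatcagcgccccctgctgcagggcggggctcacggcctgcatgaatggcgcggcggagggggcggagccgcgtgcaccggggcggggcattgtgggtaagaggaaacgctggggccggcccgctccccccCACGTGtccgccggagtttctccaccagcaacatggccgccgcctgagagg
NAT10, chr11:34105379-34105678, plus strand: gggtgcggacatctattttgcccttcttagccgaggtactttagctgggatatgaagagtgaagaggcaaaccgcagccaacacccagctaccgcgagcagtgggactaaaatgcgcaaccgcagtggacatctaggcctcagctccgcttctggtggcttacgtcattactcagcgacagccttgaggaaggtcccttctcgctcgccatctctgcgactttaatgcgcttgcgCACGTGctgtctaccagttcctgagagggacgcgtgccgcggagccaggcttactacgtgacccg
The match begins at base 250 in POLR3E and at base 236 in NAT10. Of 26 higher synthesis genes with a window, 5 (19.2%) held CACGTG, against 49 of 384 (12.8%) among those not called. Among lower genes it was in 4 of 17 windows of the cyclin class (23.5%) and 1 of 30 of the kinetochore class (3.33%). Of 9 windows of lower repair genes 0 held it. Over all called genes the share was 14.7% of 408 windows for higher and 9.04% of 697 for lower genes, and it was 8.9% over the 15384. ACGTG, which CACGTG contains, was in 29.7%, 25.7% and 24.1% in the same order. TTTGAA or TTCGAA was in 9.56%, 19.9% and 13.3%. TGTTCT, one arm of the palindrome bound by the androgen receptor, was in 10.3%, 6.17% and 11.3%. No shares were tested, and the part of any factor in them was not tested.

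Pyruvate handling and the citrate cycle had 4 lower and 1 higher of 37 (13.5%). PDK1, which shuts the pyruvate dehydrogenase complex, read 8.98 and 8.97 in the vehicle arrays and 9.89 and 10.28 in the 16 h arrays and changed by 1.11 ± 0.14 (adjusted p = 5.60e-04). DLD, the dehydrogenase subunit shared by that complex and its relatives, read 11.07 and 11.08 against 10.52 and 10.42, a change of -0.61 ± 0.09. PDP1, the phosphatase that opens the complex, changed by -0.57 ± 0.13, PDHB, a catalytic subunit, by -0.39 ± 0.09, and pyruvate carboxylase (PC) by -0.37 ± 0.10. MPC2, a subunit of the carrier that brings pyruvate into mitochondria and a member of the transporter classes here, read 12.15 and 12.26 against 12.91 and 12.89, a change of 0.69 ± 0.09. So PDK1 and MPC2 were higher, and DLD, PDHB, PDP1 and PC were lower. The 32 members of the class not named here were not called. With replicate 1 alone at 16 h, the class had 1 higher and 2 lower, and without replicate 1 it had 2 and 3. Counts were 1 higher and 1 lower without vehicle replicate 1, and 1 and 2 without vehicle replicate 2. Under the housekeeping scaling it had 3 higher and 2 lower. Respiratory chain and ATP synthase genes had 1 higher and 1 lower of 81 (2.47%). The call was lost without vehicle replicate 1 or 16 h replicate 1 for PDP1 (0.232), with the largest adjusted p in brackets. PDHB (0.169) was not called without either vehicle array or either 16 h array. PC (0.281) was not called without either vehicle array or either 4 h array or either 16 h array.

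Fatty acid oxidation and peroxisome genes had 4 higher and 2 lower of 67 (8.96%). ECHDC2, a member of the enoyl-CoA hydratase family, read 9.09 and 9.15 in the vehicle arrays and 9.87 and 9.94 in the 16 h arrays and changed by 0.78 ± 0.09 (adjusted p = 3.16e-04). ACAA1, the peroxisomal thiolase, changed by 0.66 ± 0.10. ETFA and ETFDH, which pass electrons from fatty acid oxidation to the respiratory chain, changed by -0.61 ± 0.09 and -0.51 ± 0.11. The class had 9 higher and 2 lower without replicate 1 and 2 and 1 without vehicle replicate 1. In lipid building, 6 were higher and 8 lower of 97 phospholipid and triglyceride enzymes (14.4%). CHPT1, which makes phosphatidylcholine, read 10.61 and 10.62 against 12.68 and 12.49, a change of 1.97 ± 0.10. The kinase ETNK2 and the phospholipase PLA2G4C changed by 0.64 ± 0.10 and 0.71 ± 0.12, and the acyltransferase LPGAT1 by -0.66 ± 0.14. Without replicate 2 the phospholipid class had 4 higher and 3 lower, and without replicate 1 it had 7 and 5. Leaving out vehicle replicate 1 gave 4 higher and 1 lower members, and leaving out vehicle replicate 2 gave 4 and 3. The split turned to 8 higher and 2 lower under the housekeeping scaling, so no direction is given for the class. In sphingolipid synthesis DEGS2, a desaturase, changed by 0.75 ± 0.13, and SGMS1, a sphingomyelin synthase, by -0.83 ± 0.16, the only calls among 44. A call ended without either vehicle array or 16 h replicate 1 for ETFDH (0.103), with the largest adjusted p in brackets. LPGAT1 (0.165) was not called without vehicle replicate 1 or 16 h replicate 2. DEGS2 (0.0580) and SGMS1 (0.0767) were not called without vehicle replicate 1.

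Heme and iron-sulfur enzymes had 2 lower and 0 higher of 28 (7.14%, near the 6.85% of all genes). ALAS1, the rate-limiting enzyme of heme synthesis, read 10.58 and 10.62 in the vehicle arrays and 9.64 and 9.80 in the 16 h arrays. It changed by -0.88 ± 0.10 (limma adjusted p = 4.83e-04), and CPOX, a later step, by -0.70 ± 0.14. Lysosomal genes had 6 lower and 1 higher of 64 (10.9%). The membrane protein LAMP2 read 10.71 and 10.73 against 10.11 and 9.93, a change of -0.70 ± 0.11. The thioesterase PPT1 changed by -0.56 ± 0.10 and the cholesterol exporter NPC1 by -0.50 ± 0.10, and for NPC1 the mean of its probe sets differed by 0.04. GAA, the acid glucosidase that breaks down glycogen, went the other way. It read 10.32 and 10.28 against 11.21 and 11.57, a change of 1.09 ± 0.12. The class had 1 higher and 4 lower members without vehicle replicate 1, and 1 and 4 without vehicle replicate 2. Under the housekeeping scaling 1 was higher and 3 lower. Of 49 autophagy genes 2 were lower, among them WIPI1, which binds the forming membrane, at -1.47 ± 0.11. Antioxidant genes included NFE2L2, the factor that induces many of them, which read 11.94 and 11.88 against 11.20 and 11.02, a change of -0.80 ± 0.11. TXNRD1 and GCLM changed by -0.50 ± 0.09 and -0.50 ± 0.12, and the thioredoxin inhibitor TXNIP by 0.45 ± 0.09. Over the antioxidant class the median was 0.02, and 69 of 76 members were not called. Also called in the class were ABCC1 (0.66 ± 0.12) and GGT1 (0.42 ± 0.10), both higher, and GLRX2 (-0.48 ± 0.10), which was lower. The rises of ABCC1 and GGT1 were larger in replicate 2. The class had 3 higher and 4 lower of 76 (9.21%), and 2 and 4 without replicate 2. Counts were 0 higher and 1 lower without vehicle replicate 1, and 2 and 3 without vehicle replicate 2. Under the housekeeping scaling it had 5 higher and 2 lower, and without replicate 1 it had 6 and 5. The threshold was missed without vehicle replicate 2 for CPOX (0.0781) and NPC1 (0.0608), with the largest adjusted p in brackets. TXNRD1 (0.0536) and TXNIP (0.110) were not called without vehicle replicate 1. GCLM (0.227) was not called without either vehicle array or either 4 h array or 16 h replicate 2.

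Membrane transport genes changed in both directions. SLC12A2, which carries sodium, potassium and chloride into the cell, read 11.23 and 11.18 in the vehicle arrays and 9.85 and 9.76 in the 16 h arrays and changed by -1.40 ± 0.09 (adjusted p = 4.10e-06). SLC26A3, a chloride and bicarbonate exchanger, rose from a low level, with 4.55 and 4.64 against 5.58 and 5.72 and a change of 1.05 ± 0.11. ATP1B1, a subunit of the sodium pump, read 12.86 and 12.78 against 13.70 and 13.61, a change of 0.84 ± 0.09. The class of sodium, proton, chloride and anion exchangers counted 3 higher and 3 lower of 76 (7.89%, near the 6.85% of all genes). Among its other called members, the chloride channel ANO1 changed by -0.60 ± 0.12 and FXYD3 by 0.36 ± 0.09. Potassium and calcium channels had 2 higher and 3 lower of 150 (3.33%, below the 6.85%). KCNK2, a leak channel, read 8.83 and 8.55 against 7.59 and 7.32, a change of -1.24 ± 0.12, and KCNMA1, the large calcium-gated channel, read 11.39 and 11.44 against 12.10 and 12.26, a change of 0.76 ± 0.10. ATP2B1, the calcium pump of the plasma membrane, read 10.26 and 9.98 against 8.65 and 9.17, a change of -1.21 ± 0.17 with the smaller fall in replicate 2.

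Carriers for nutrients had 2 higher and 7 lower of 54 in the class for sugars, monocarboxylates and nucleosides (16.7%). SLC35D1, which moves sugar nucleotides into the endoplasmic reticulum, read 10.21 and 10.14 in the vehicle arrays and 9.15 and 9.45 in the 16 h arrays and changed by -0.88 ± 0.11 (adjusted p = 7.22e-04). SLC2A10, a member of the glucose transporter family, read 10.78 and 10.78 against 10.13 and 10.01, a change of -0.71 ± 0.10, and SLC35A1, the CMP-sialic acid carrier of the Golgi, changed by -0.59 ± 0.10. The nucleoside transporter SLC29A2 changed by 0.47 ± 0.11. Leaving out replicate 2, the class had 1 higher and 4 lower, and without replicate 1 it had 4 and 5. Leaving out vehicle replicate 1 gave 1 higher and 2 lower members, and leaving out vehicle replicate 2 gave 3 and 4. With the housekeeping scaling it had 4 higher and 3 lower, so the split by direction depended on the scaling. Amino acid carriers had 2 higher and 3 lower of 52, with SLC38A9, the lysosomal sensor of arginine, at -0.59 ± 0.10, and 0 higher and 1 lower without replicate 2 or without either vehicle array. Metal and mineral ion genes had 2 higher and 2 lower of 48 (8.33%, near the 6.85% of all genes). The ferritin light chain FTL changed by 0.59 ± 0.10 and the iron exporter SLC40A1 by -0.64 ± 0.11. The zinc importer SLC39A10 changed by 0.63 ± 0.09 and the phosphate importer SLC20A2 by -0.74 ± 0.12. ABC transporters had 2 higher and 1 lower of 42 (7.14%, also near that share). They were ABCC11, a lipophilic anion pump of apocrine glands, at 0.89 ± 0.09, ABCC1 at 0.66 ± 0.12 and ABCC5 at -0.69 ± 0.10. The call was lost without vehicle replicate 1 for SLC35A1 (0.0602), SLC38A9 (0.0599) and ABCC1 (0.0550), with the largest adjusted p in brackets. SLC29A2 (0.200) was not called without vehicle replicate 1 or 16 h replicate 2.

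Enzymes that build mucin-type glycans had 4 higher and 5 lower of 93 (9.68%). ST3GAL1, which caps the core 1 glycan with sialic acid, read 11.25 and 11.24 in the vehicle arrays and 10.46 and 10.50 in the 16 h arrays and changed by -0.77 ± 0.10 (adjusted p = 6.88e-04). ST6GALNAC2 and GALNT10, a further sialyltransferase and a starter enzyme, changed by -0.67 ± 0.10 and -0.59 ± 0.10, while ST6GAL1, a sialyltransferase of N-glycans, changed by 0.54 ± 0.12. The class had 1 higher and 4 lower without replicate 2, and 1 and 5 with the covariate. The class had 2 higher and 4 lower members without vehicle replicate 1, and 3 and 4 without vehicle replicate 2. Of 60 proteoglycans and heparan sulfate enzymes, 3 were lower (5.00%, near the 4.30% of all genes) and 0 higher. EXT1, which makes the heparan sulfate chain with EXT2, read 10.22 and 10.10 against 9.18 and 9.18, a change of -0.98 ± 0.10. EXT2 changed by -0.37 ± 0.10, and the sulfotransferase CHST11 by -0.66 ± 0.10. Collagen genes had 4 of 56 higher and 0 lower (7.14%, near the 6.85% of all genes), and 3 of the 4 modify collagen chains. P4HA1, the catalytic subunit of prolyl hydroxylase, read 11.25 and 11.30 against 12.60 and 12.45, a change of 1.25 ± 0.09, and P4HA2 and PLOD1 changed by 0.39 ± 0.09 and 0.52 ± 0.11. Of these, P4HA1 was the 1 called without replicate 2, and the class had 1 higher without vehicle replicate 1, 2 without vehicle replicate 2 and 2 with the covariate. A call ended without vehicle replicate 1 or 16 h replicate 2 for ST6GAL1 (0.169) and PLOD1 (0.129), with the largest adjusted p in brackets. EXT2 (0.198) was not called without either vehicle array or either 4 h array or either 16 h array. P4HA2 (0.149) was not called without either vehicle array or either 16 h array.

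Proteases at the cell surface had 2 higher and 2 lower of 70 metalloproteases and inhibitors (5.71%). Serine proteases and serpins had 0 higher and 1 lower of 85 (1.18%), against 6.85% of all genes called. ADAMTS1, which cuts proteoglycans, read 8.11 and 7.98 in the vehicle arrays and 9.31 and 9.37 in the 16 h arrays and changed by 1.29 ± 0.11. TIMP1, an inhibitor of matrix metalloproteases, read 10.71 and 10.80 against 9.99 and 10.05, a change of -0.74 ± 0.09, and SPINT1, an inhibitor of surface serine proteases, read 12.56 and 12.57 against 12.04 and 12.08, a change of -0.51 ± 0.09. Tetraspanins and their relatives had 4 lower and 0 higher of 35 (11.4%). TM4SF1 read 14.02 and 13.98 against 13.10 and 13.21, a change of -0.85 ± 0.09, and 3 of its 4 other probe sets were called lower as well. TSPAN5, TSPAN15 and TSPAN13 changed by -0.57 ± 0.10, -0.46 ± 0.11 and -0.38 ± 0.09, and each of the 4 was called without replicate 2. The lower count was 2 without replicate 1, without either vehicle array and under the housekeeping scaling. The threshold was missed without either vehicle array or 16 h replicate 1 for TSPAN15 (0.132), with the largest adjusted p in brackets. TSPAN13 (0.142) was not called without either vehicle array or either 4 h array or 16 h replicate 1.

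Secreted ligands had 7 lower and 3 higher of 159 (4.40% and 1.89%, near the 4.30% and 2.55% of all genes). TGFB2, a ligand that restrains epithelial growth, read 8.69 and 8.35 in the vehicle arrays and 7.15 and 7.35 in the 16 h arrays and changed by -1.27 ± 0.13 (adjusted p = 1.46e-04). EDN1, the peptide endothelin 1, read 10.06 and 10.15 against 9.28 and 9.35, a change of -0.79 ± 0.09, and TNFSF10, a ligand that triggers cell death, read 8.59 and 8.58 against 7.55 and 7.88, a change of -0.87 ± 0.13. GDF15, a stress-induced ligand, changed by -1.87 ± 0.09, although on probe sets outside the shared kinds the difference was 0.12. With replicate 1 alone at 16 h, the counts were 7 lower and 0 higher, and the higher ligands CCL17, TNFSF13 and STC2 missed the threshold. Counts were 0 higher and 6 lower without vehicle replicate 1, and 2 and 4 without vehicle replicate 2.

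Receptors gave 4 higher and 6 lower of 212 G protein-coupled receptors (4.72%). PTGER4, a prostaglandin E2 receptor, read 9.15 and 8.97 in the vehicle arrays and 7.61 and 8.01 in the 16 h arrays and changed by -1.25 ± 0.13 (adjusted p = 2.39e-04). S1PR3, a receptor for sphingosine 1-phosphate, read 10.22 and 10.19 against 9.28 and 9.17, a change of -0.98 ± 0.10, and the chemokine receptor CXCR4 read 9.58 and 9.47 against 8.77 and 8.38, a change of -0.95 ± 0.13. ADRA2A, an inhibitory adrenergic receptor, was the largest rise of the class, with 7.02 and 6.93 against 8.77 and 8.53 and a change of 1.68 ± 0.15. Of 49 receptor tyrosine kinases outside the ERBB family 2 were lower and 0 higher, among them the ephrin receptor EPHA4, which read 9.99 and 10.13 against 8.69 and 8.85, a change of -1.29 ± 0.11. These 5 receptors kept their call in each fit that left out 1 array.

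Of 65 RAS and RAP genes 2 were higher and 6 lower (12.3%), and of 128 Rab genes 3 and 6 (7.03%). SIPA1L2, which switches off RAP, read 12.07 and 12.18 in the vehicle arrays and 10.23 and 10.23 in the 16 h arrays and changed by -1.90 ± 0.10 (adjusted p = 7.43e-07). SYTL2, RAB27B and RAB22A act in vesicle traffic and changed by -1.70 ± 0.14, -0.77 ± 0.10 and -1.06 ± 0.10, and TBC1D16, which switches off Rab proteins, by 0.78 ± 0.10. For the RAS and RAP genes, leaving out vehicle replicate 1 gave 1 higher and 2 lower, and leaving out vehicle replicate 2 gave 2 and 3. The Rab genes had 1 higher and 4 lower without vehicle replicate 1 and 6 and 4 under the housekeeping scaling.

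Transcription factors of the basic helix-loop-helix and leucine zipper families had 7 lower and 1 higher of 85 (9.41%). AHR, the sensor of planar aromatic compounds, read 8.26 and 8.37 in the vehicle arrays and 7.35 and 7.38 in the 16 h arrays and changed by -0.95 ± 0.14 (adjusted p = 0.00218). EPAS1, a hypoxia-inducible factor, read 11.13 and 11.15 against 10.36 and 10.43, a change of -0.74 ± 0.09, and MITF, a regulator of pigment cells and lysosomes, changed by -0.71 ± 0.12. SREBF1, the factor that drives lipid synthesis, was the 1 higher member at 0.50 ± 0.10. Leaving out vehicle replicate 1 gave 0 higher and 5 lower members, and leaving out vehicle replicate 2 gave 0 and 5. Under the housekeeping scaling 4 were higher and 5 lower, and without replicate 1 the counts were 3 and 9. Among 143 homeobox, forkhead and SOX factors, 7 were higher and 4 lower (7.69%, near the 6.85% of all genes). SOX9 read 9.01 and 8.93 against 8.04 and 7.58, a change of -1.16 ± 0.15, and IRX3 read 13.18 and 13.28 against 13.91 and 13.96, a change of 0.70 ± 0.09. The counts were 3 and 3 without replicate 2, 3 and 4 with the covariate and 9 and 2 under the housekeeping scaling. The class had 3 higher and 2 lower members without vehicle replicate 1, and 5 and 2 without vehicle replicate 2. Nuclear receptors had 2 higher and 3 lower of 38 (13.2%). VDR, the vitamin D receptor, changed by -0.47 ± 0.10, and RORA by 0.47 ± 0.10, and without replicate 2 the class had 0 higher and 1 lower. It had 0 called without vehicle replicate 1, 0 higher and 1 lower without vehicle replicate 2, and 2 and 1 under the housekeeping scaling. The call was lost without either vehicle array or 16 h replicate 2 for SREBF1 (0.0633), VDR (0.0940) and RORA (0.0950), with the largest adjusted p in brackets.

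Among coregulators of nuclear receptors 3 were higher and 1 lower of 54 (7.41%, near the 6.85% of all genes). NRIP1, a corepressor, read 10.93 and 10.96 in the vehicle arrays and 11.66 and 11.79 in the 16 h arrays and changed by 0.77 ± 0.10 (adjusted p = 0.00103), and the coactivator NCOA1 read 9.59 and 9.54 against 10.09 and 10.13, a change of 0.54 ± 0.09. MED21, a subunit of the Mediator complex, changed by -0.70 ± 0.11. Of 106 histone modifying enzymes 4 were higher and 2 lower (5.66%, also near that share). KDM4B, a demethylase of histone H3, had the largest change at 0.98 ± 0.12, from 10.05 and 9.82 against 11.04 and 10.78. That class had 1 higher without replicate 2, 1 and 0 without vehicle replicate 1, 3 and 0 without vehicle replicate 2, 9 and 0 under the housekeeping scaling, and 1 and 3 with the covariate. Of 36 histones 2 were lower, H2AC16 (-0.66 ± 0.14) and H1-3 (-0.60 ± 0.13), and the count was 0 without vehicle replicate 1 and 4 without vehicle replicate 2. Of 21 clock genes 1 was higher and 2 lower (14.3%), and changes ran up to 0.47. The lower 2, TIMELESS and PER2, changed by -0.75 ± 0.12 and -0.57 ± 0.12. Zinc finger genes named ZNF had 7 higher and 11 lower of 466 (3.86%). Without 16 h replicate 1 they had 21 and 20, or 8.80% called, against 8.36% of all genes in that fit. ZNF652 read 10.82 and 10.64 against 11.72 and 12.11, a change of 1.18 ± 0.14, and ZNF750, an epidermal factor, read 7.62 and 7.35 against 6.60 and 6.25, a change of -1.06 ± 0.18. Counts were 3 higher and 1 lower without vehicle replicate 1, and 5 and 12 without vehicle replicate 2. A call ended without vehicle replicate 1 or 16 h replicate 2 for H2AC16 (0.146) and H1-3 (0.134), with the largest adjusted p in brackets. PER2 (0.135) was not called without vehicle replicate 1 or 16 h replicate 1. ZNF750 (0.0557) was not called without vehicle replicate 1.

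Protein quality control classes were called near or below the 6.85% of all genes. Proteasome genes had 1 lower of 46 (2.17%). Deubiquitinases had 5 lower and 0 higher of 77 (6.49%), and chaperones 5 higher and 3 lower of 120 (6.67%). Ubiquitin conjugating enzymes and F-box proteins had 2 higher and 6 lower of 107 (7.48%). TRIM and RNF ubiquitin ligases had 4 higher and 8 lower of 166 (7.23%). The deubiquitinases had 3 lower without replicate 2, 0 called without vehicle replicate 1 and 1 lower under the housekeeping scaling. Chaperones called higher numbered 1 without replicate 2, without vehicle replicate 1 or with the covariate, and 10 under the housekeeping scaling. FBXO5, which holds back the anaphase-promoting complex, read 10.57 and 10.63 in the vehicle arrays and 9.88 and 9.71 in the 16 h arrays and changed by -0.80 ± 0.09 (adjusted p = 4.13e-04). CBLB, a ligase that tags receptor tyrosine kinases, changed by -0.86 ± 0.12, RNF19A by -0.77 ± 0.09 and ZNRF1 by 1.05 ± 0.09, with 3 of the 5 other ZNRF1 probe sets called higher too. The 16 h arrays of ZNRF1 read 10.33 and 10.39, against 9.29 and 9.32 in vehicle. HSPE1, the mitochondrial co-chaperonin, changed by 0.45 ± 0.11 and HSPB1, a small heat shock protein, by -0.51 ± 0.12. The threshold was missed without either vehicle array or either 4 h array or either 16 h array for HSPE1 (0.138), with the largest adjusted p in brackets. HSPB1 (0.141) was not called without vehicle replicate 2 or 16 h replicate 1.

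Beyond the 8 genes at the top of each direction, the ranks 9 to 20 added regulators and cytoskeletal genes. HSD11B2, which inactivates cortisol, read 7.63 and 7.85 in the vehicle arrays and 9.90 and 9.92 in the 16 h arrays and changed by 2.17 ± 0.10, and C1orf116, an androgen-induced gene of prostate cells, changed by 2.17 ± 0.09. IQGAP2, a scaffold at the cell cortex, read 7.64 and 7.50 against 9.63 and 9.81, a change of 2.15 ± 0.12. NFKBIA, EAF2, BNIP3 and CASD1 changed by 1.77 ± 0.10, 1.46 ± 0.12, 1.42 ± 0.10 and 1.25 ± 0.11. They inhibit NF-kB, assist elongation by RNA polymerase II, promote removal of mitochondria and acetylate sialic acid, in that order. MYC, the growth regulator, read 10.54 and 10.55 against 12.05 and 11.65, a change of 1.31 ± 0.13. On the lower side, VCL, the adhesion protein vinculin, read 12.81 and 13.07 against 11.04 and 11.01, a change of -1.91 ± 0.10, and THBS1, thrombospondin, read 13.09 and 12.93 against 11.34 and 11.10, a change of -1.79 ± 0.15. PDLIM5, an actin-binding adaptor, GBP2, an interferon-induced GTPase, NTN4, a netrin, and ATXN1 changed by -1.70 ± 0.13, -1.93 ± 0.20, -1.89 ± 0.10 and -1.91 ± 0.11. Each gene named here kept its call in each fit that left out 1 array.

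**Figure D3:**
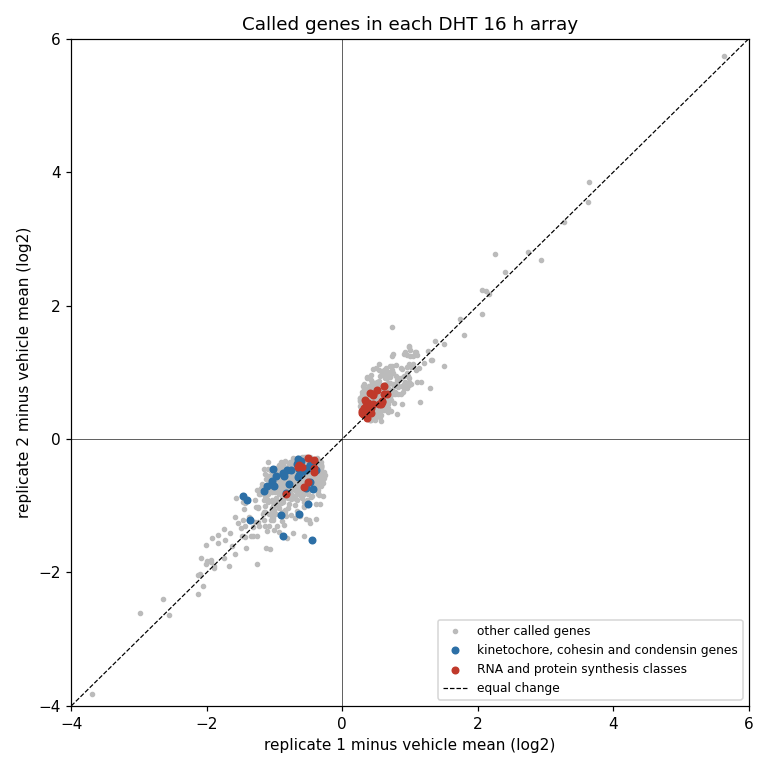
Change of each of the 1354 called genes from the vehicle mean in DHT 16 h replicate 1 (x axis, log2) and replicate 2 (y axis, log2), with kinetochore, cohesin and condensin genes in blue, the 8 RNA and protein synthesis classes in red and a dashed line of equal change. Of the 504 higher genes 376 lie above the line, and RAD21 is the blue point at -0.45 and -1.52.

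Set beside each other, the 16 h replicates differed by direction. Among the 504 higher genes the median change was 0.46 in replicate 1 and 0.58 in replicate 2, and 376 were further from vehicle in replicate 2. Among the 850 lower genes the medians were -0.61 and -0.54, and 318 were further from vehicle in replicate 2. Over all genes replicate 2 lay above replicate 1 by a median of 0.031, and it lay above in 57.2% of genes. For the kinetochore class the median gap was 0.20, with replicate 2 above replicate 1. The 504 and 850 genes each had both 16 h arrays on one side of both vehicle arrays, as 25.9% of all genes had above and 21.1% below.

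**Figure D4:**
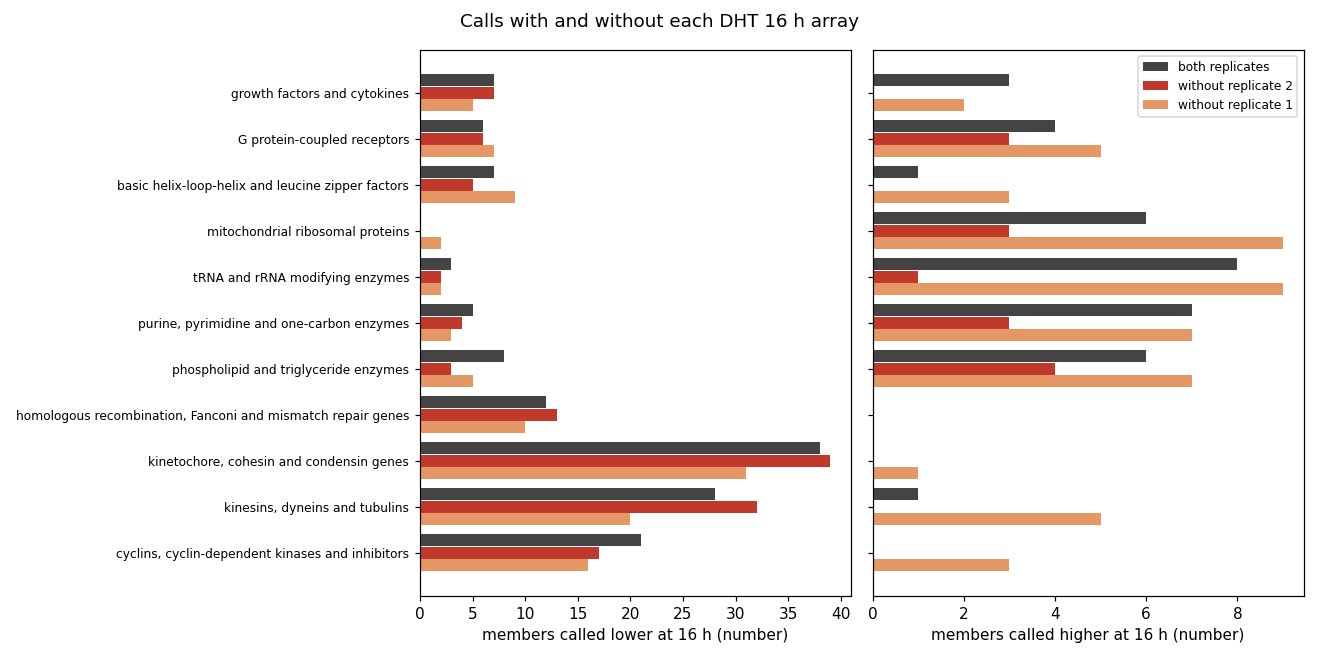
Number of members called lower (left) and higher (right) in 11 classes with both DHT 16 h arrays (dark), without replicate 2 (red) and without replicate 1 (orange). Lower calls in the kinetochore class number 38, 39 and 31, while higher calls among tRNA and rRNA modifying enzymes number 8, 1 and 9.

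Of the 292 genes taken by the naming rule, 201 kept their call without replicate 2 and 242 without replicate 1, and 139 kept it in each of the 8 fits that left out 1 array. Their 409 other probe sets gave 113 calls in the same direction and 0 in the opposite one. Genes with other probe sets of which none was called included CCNA2, DLD, ATP1B1, ABCC11, EXT1, EPAS1, CBLB, EAF2 and CASD1. At 4 h and 48 h, compared with the same vehicle arrays, 35 (0.177%) and 1881 (9.51%) of all genes were called. The kinetochore class had 0 lower at 4 h and 33 at 48 h, with medians of -0.08 and -0.40. The tRNA and rRNA modifying enzymes had 1 higher at 4 h and 4 at 48 h, and the PUS1 difference from vehicle was 0.66 at 4 h and 0.22 at 48 h. For RRM2 it was -0.12 and -0.28, and for SLC26A3 0.21 and 1.86.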

How the data were processed

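The deposited table holds log2 signals of 54675 probe sets, normalised by the authors with RMA per the submitters' processing notes; its version, and the background and summary settings, are not given in the sources used here. Of the probe sets, 41091 named 1 gene, 1801 several and 11721 none, and 62 were controls. Each of 19775 genes was read by whichever of its probe sets was brightest on average across the 8 arrays, of which 5716 were of the _s_at or _x_at kind, which can match more than 1 transcript. No dim genes were removed, and precision is limited by how few arrays there were.

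A model of 4 group means over 8 arrays was fitted with limma 3.58.1 in R 4.3.3 (4 residual and 7.21 prior degrees of freedom), with Benjamini-Hochberg adjustment over all genes and two-sided tests. Errors of a change are standard errors. No permutation test was run, since the smallest exact p for 2 arrays against 2 is 0.333. Same-numbered arrays did not deviate together (correlations from -0.244 to 0.196), so numbers were not used as pairs. The fit was tested on simulated data.

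The 59 classes were drawn from gene family names, and a gene can stand in more than 1 (68 did). The comparison, the classes and the naming rule were chosen with earlier results of these data known. The rule took, in each class, up to 4 called members with the largest rise and 4 with the largest fall, and ranks 1 to 20 in each direction over all genes. Within a class no test was made over members. Results for 1 class are not reported here. Promoters were matched by symbol to a RefSeq table (GRCh38.p14), which held 15384 of the genes.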

Additional observations from a re-analysis of the deposited data

Results flagged for a closer look

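Of the genes named, 2 were called at 16 h and had a change of opposite sign at 48 h, with the difference between the 2 times called as well. ANO1, a calcium-gated chloride channel, changed by -0.60 ± 0.12 at 16 h and by 0.43 at 48 h (adjusted p = 0.0433), and DHT 48 h lay above 16 h by 1.03 (limma adjusted p = 0.00188). It was not called at 16 h without vehicle replicate 1. NCOA5, a coregulator, changed by 0.41 ± 0.11 at 16 h, and its difference at 48 h was -0.15 with no call (adjusted p = 0.474). For it DHT 48 h lay below 16 h, a difference of -0.56 (adjusted p = 0.0417), and it was not called at 16 h without any 1 of the vehicle, DHT 4 h or DHT 48 h arrays or DHT 16 h replicate 2 (largest adjusted p = 0.257). Groups of 2 arrays were too small for a test of single outlying arrays.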

How the results depend on the processing

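Calls numbered 504 higher and 850 lower. Leaving out each array in turn gave 189 to 762 higher and 328 to 892 lower. The higher count was 259 with the 4 arrays of the comparison alone (lower 539), 286 with the ACTB gap as a covariate, 807 with equal housekeeping medians (lower 548), 324 with probe sets outside the _s_at and _x_at kinds and 277 at a change of at least 0.5. The fit with the replicate number as a block gave 458 higher and 803 lower. The other counts, including those with array weights (394 and 717), a second quantile normalization (626 and 799), a dim filter (529 and 880), the mean of all probe sets (466 and 809), and trend with robust moderation (611 and 972), were within 1.5 times. On probe sets outside the _s_at and _x_at kinds ABHD11 differed by 0.04, EIF2AK4 by -0.14, GDF15 by 0.12, MMP15 by -0.14, NSD2 by 0.15, PALLD by 0.01, PIK3R1 by 0.25 and TGIF1 by 0.15, each the other way, and NPC1 differed by 0.04 with the mean of its probe sets; the cause was not tested. Of the values of the 292 named genes under the alternatives, 4300 kept direction and call, 887 kept direction and lost the call and 9 turned.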
